A study of Mus musculus with 12 samples.

Results

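Microtubules are hollow polymers of tubulin dimers, each made of an alpha and a beta subunit, and mammals carry several genes (isotypes) for both subunits. In a skeletal muscle fibre they run as a lattice under the membrane and around the nuclei, where they carry cargo and hold nuclei in place. The isotypes share a nearly identical folded body and differ mainly in the acidic tail at the carboxyl end, where enzymes remove a terminal tyrosine and add glutamates. Here the 10 alpha- and beta-tubulin genes *Tuba1a*, *Tuba1b*, *Tuba1c*, *Tuba4a*, *Tuba8*, *Tubb2a*, *Tubb2b*, *Tubb3*, *Tubb5* and *Tubb6*, of 55450 genes in all, were followed through the growth of mouse muscle. They were listed by name and found by symbol, with the steep rise of *Tuba8* by 2 weeks (wks) already known from these same libraries. Values of these genes between E18.5 and a later age are therefore given as a description without a p-value.

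RNA came from the tibialis anterior (TA), which lifts the foot, and every library was wild-type (WT) on the 129Pas background (129SvPas in the methods), with no treatment named in the labels. Embryos at E18.5, pups of 2 wks and young adults of 7 wks gave 4 libraries each, 12 in all, each library from a mouse of its own. Pieces of muscle were extracted, so RNA of nerve, vessels, connective tissue and blood is included, and fewer cells of a type cannot be told apart from less RNA per cell. Between 63018968 and 123449246 reads were counted on genes per library. The muscle fibre markers fit the label, with at least 261256 reads on *Acta1*, the actin of skeletal muscle, in every library. Counts were scaled with the TMM method of edgeR (CPM, the count relative to the scaled library total), and 19276 genes passed its filter on low counts. The quasi-likelihood test of edgeR was used for changes, with Benjamini-Hochberg adjustment over these 19276 genes and an adjusted p under 0.05 as the threshold. Of the 10 tubulin genes, 9 passed the filter and *Tubb3* did not.

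The proteins of *Tuba1a* and *Tuba1b* were identical at 99.6% of aligned residues, as were those of *Tubb2a* and *Tubb2b*. *Tuba8* was the most distant alpha member, with 90.0% to 90.2% identity to the other 4, while *Tuba4a* had 95.8% to 96.2% identity to the *Tuba1* genes.

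The alpha genes differ in the last codon before the stop, and since this sets whether the protein is made with a terminal tyrosine, the last 45 coding bases of *Tuba1c*, *Tuba4a* and *Tuba8*, one for each kind of ending, are shown 5′ to 3′ from GRCm39, with the last amino acid codon in capitals. *Tuba1a*, *Tuba1b* and *Tuba1c* end in a tyrosine codon, *Tuba4a* in a glutamate codon and *Tuba8* in a phenylalanine codon. The stretches lie at chr15:98935846-98935890, chr1:75192266-75192310 and chr6:121202994-121203038, in the order shown and on the strand of each gene.
Tuba1c: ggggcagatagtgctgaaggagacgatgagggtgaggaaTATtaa
Tuba4a: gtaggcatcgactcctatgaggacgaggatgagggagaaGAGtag
Tuba8: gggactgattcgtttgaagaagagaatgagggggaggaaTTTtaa

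A second difference is at codon 40, counted from the start codon, which in most alpha-tubulins encodes the lysine that the acetyltransferase ATAT1 modifies on the inside of the microtubule. The 30 bases of codons 36 to 45 are shown with codon 40 in capitals, and *Tuba1b* and *Tuba1c* have the same bases here as *Tuba1a*. The stretches lie at chr15:98849441-98849470, chr1:75193947-75193976 and chr6:121197445-121197474. *Tuba8* alone of the 5 has an alanine codon in place of the lysine codon.
Tuba1a: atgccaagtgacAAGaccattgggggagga
Tuba4a: atgcccagcgatAAGaccattggtggaggg
Tuba8: tttggcactcagGCCagcaagatcaacgat

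*Tuba8*, an alpha isotype known from muscle, testis and brain, was near the bottom of the range before birth, with 66, 216, 162 and 196 reads in E18.5 replicates 1 to 4, or 0.458, 1.25, 0.790 and 0.978 CPM. At 2 wks it stood at 199, 231, 369 and 337 CPM, and at 7 wks at 293, 246, 314 and 220 CPM. Every library after birth was thus far above every embryonic one, while the 2 later ages overlapped. The log2 fold change was 8.35 (standard error, SE, 0.37) from E18.5 to 2 wks, a rise of 326-fold by which the gene was chosen, and -0.08 (SE 0.27) from 2 to 7 wks.

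The alpha genes were spread over 3 chromosomes of GRCm39. *Tuba1b* (chr15:98827738-98832493, minus strand), *Tuba1a* (chr15:98847714-98851589, minus strand) and *Tuba1c* (chr15:98927748-98936266, plus strand) lie side by side, *Tuba4a* lies at chr1:75189219-75196566 on the minus strand and *Tuba8* at chr6:121187638-121203818 on the plus strand. Of the beta genes, *Tubb2a* (chr13:34257549-34261998) and *Tubb2b* (chr13:34307245-34315143) are neighbours on the minus strand, *Tubb3* lies at chr8:124138163-124150092 on the plus strand, *Tubb5* at chr17:36144809-36149198 on the minus strand and *Tubb6* on chromosome 18.

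*Tuba4a*, the other alpha isotype made without a terminal tyrosine, was already abundant in the embryo. It measured 129, 234, 127 and 160 CPM in the 4 embryos, 581, 674, 1135 and 1051 CPM at 2 wks and 1364, 1153, 1183 and 962 CPM at 7 wks. All libraries after birth exceeded all embryonic ones, and the ranges of 2 and 7 wks overlapped. The log2 fold change was 2.41 (SE 0.26) in the first interval and 0.44 (SE 0.25) in the second, which did not pass the threshold (adjusted p = 0.213, edgeR, Benjamini-Hochberg adjusted). After removal of the GC trend of every library the second value was 0.67 and passed it (adjusted p = 0.0386, edgeR, Benjamini-Hochberg adjusted).

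**Figure D1:**
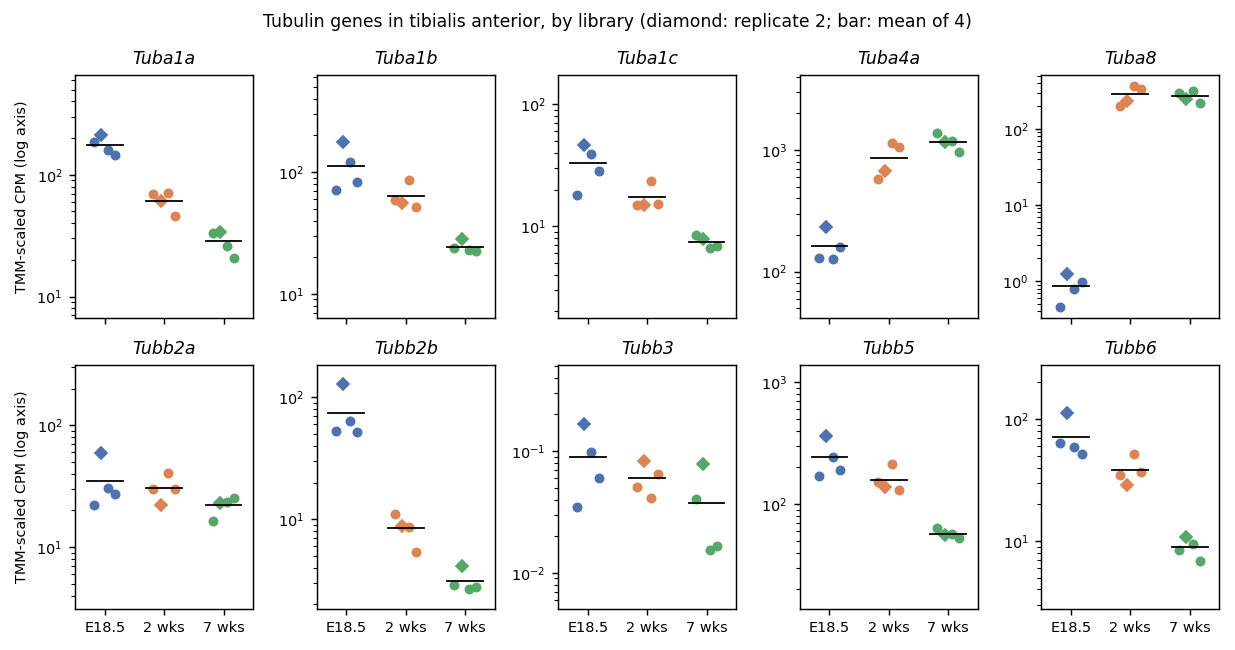
Level of each of the 10 tubulin genes in TMM-scaled CPM on a log axis (the range differs between panels) in the 4 libraries of E18.5, 2 wks and 7 wks, with replicate 2 as a diamond and the mean of 4 as a bar. *Tuba4a* and *Tuba8* stand higher after birth, whereas the means of *Tuba1a*, *Tuba1b*, *Tuba1c*, *Tubb2b*, *Tubb5* and *Tubb6* step down at both intervals, and E18.5 replicate 2 is the highest embryo in all 10 panels.

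The *Tuba1* genes, which supply much of the alpha-tubulin of dividing cells and growing neurons, went the other way. *Tuba1a* measured 185, 214, 161 and 146 CPM at E18.5, 68.8, 61.0, 70.2 and 45.5 CPM at 2 wks and 33.5, 33.7, 25.9 and 20.7 CPM at 7 wks, with no overlap between the ages. From E18.5 to 2 wks its log2 fold change was -1.52 (SE 0.20). From 2 to 7 wks it fell by 1.11 on the log2 scale (SE 0.20, adjusted p = 0.00132, edgeR, Benjamini-Hochberg adjusted).

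*Tuba1b* measured 71.1, 176, 121 and 83.7 CPM at E18.5, 58.8, 55.4, 86.2 and 52.2 CPM at 2 wks and 23.8, 28.4, 23 and 22.7 CPM at 7 wks. *Tuba1c* measured 17.9, 46.8, 38.9 and 28.2 CPM, then 15, 15, 23.7 and 15.1 CPM, then 8.53, 7.92, 6.60 and 6.86 CPM. For both genes the ranges of E18.5 and 2 wks overlapped, whereas all 7-wk libraries were lower. Between 2 and 7 wks *Tuba1b* fell by 1.37 (SE 0.26) and *Tuba1c* by 1.2 (SE 0.26) on the log2 scale, with adjusted p = 0.00187 and 0.00438 by edgeR, Benjamini-Hochberg adjusted. In the first interval their log2 fold changes were -0.84 (SE 0.25) and -0.94 (SE 0.26).

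Among the beta genes, *Tubb5*, the widely expressed isotype of proliferating cells, overlapped between the embryo and 2 wks and then stepped down. Its values were 169, 363, 243 and 189 CPM at E18.5, 151, 137, 213 and 132 CPM at 2 wks and 63.1, 56.0, 56.5 and 52.5 CPM at 7 wks. The 7-wk libraries lay below all others. The log2 fold change was -0.61 (SE 0.23) before 2 wks, and from 2 to 7 wks it fell by 1.47 (SE 0.23, adjusted p = 0.000607, edgeR, Benjamini-Hochberg adjusted).

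*Tubb6*, a class V beta-tubulin, measured 63.3, 113, 59.5 and 51.6 CPM in the embryos, 34.8, 29, 51.7 and 36.6 CPM at 2 wks and 8.37, 10.8, 9.41 and 6.80 CPM at 7 wks. The 7-wk libraries lay below all others, and the ranges of E18.5 and 2 wks just overlapped, at the lowest embryo and the highest 2-wk library. From 2 to 7 wks *Tubb6* fell by 2.10 on the log2 scale (SE 0.26, adjusted p = 0.000114, edgeR, Benjamini-Hochberg adjusted), and its first-interval value was -0.92 (SE 0.25).

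The class II pair differed in its values. *Tubb2b*, strongly expressed by young neurons, measured 52.8, 128, 63.5 and 51.7 CPM at E18.5, 11, 8.81, 8.59 and 5.42 CPM at 2 wks and 2.87, 4.13, 2.65 and 2.80 CPM at 7 wks, with no overlap between ages. Its log2 fold change was -3.13 (SE 0.31) in the first interval, and in the second it fell by 1.44 (SE 0.30, adjusted p = 0.00366, edgeR, Benjamini-Hochberg adjusted). The near-identical *Tubb2a* measured 22.3, 59.2, 30.6 and 27.5 CPM at E18.5, 30.1, 22.3, 40.3 and 29.7 CPM at 2 wks and 16.4, 23, 23.6 and 25.2 CPM at 7 wks. These ranges overlapped at every step, and the log2 fold changes were -0.19 (SE 0.27) and -0.47 (SE 0.27), the second with adjusted p = 0.218 (edgeR, Benjamini-Hochberg adjusted). Per length, the ratio of *Tubb2b* to *Tubb2a* was 0.836 to 1.05 in the embryos, 0.0811 to 0.176 at 2 wks and 0.0495 to 0.0797 at 7 wks.

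*Tubb3*, the beta isotype used as a marker of neurons, had 5, 29, 20 and 12 reads in the embryos, 3 to 8 reads at 2 wks and 1 to 5 reads at 7 wks. The levels were at most 0.168 CPM, and the ranges of the 3 ages overlapped. At these counts it was below the filter and has no fold change here.

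As a description, since *Tuba8* was chosen by this rise, 8 of the 9 tested genes were past the threshold between E18.5 and 2 wks, 2 higher (*Tuba4a* and *Tuba8*) and 6 lower, with *Tubb2a* as the exception. Of all tested genes, 65.7% were past it in this comparison, 31.5% higher and 34.2% lower, and nothing is read from the count. From 2 to 7 wks 6 passed, all lower (*Tuba1a*, *Tuba1b*, *Tuba1c*, *Tubb2b*, *Tubb5* and *Tubb6*), against 27.5% of all tested genes, 13.5% higher and 13.9% lower. Over the 9 genes the median was -0.84 (log2) in the first interval and -1.2 in the second, beside -0.0925 and -0.0339 over everything tested. Between E18.5 and 7 wks, again as a description, all 9 were past it, 2 higher and 7 lower, and so were 71.4% of all tested genes (34.3% higher and 37.1% lower). Under scaling to the total count the first-interval log2 fold changes were lower throughout, such as 1.46 for *Tuba4a*, 7.40 for *Tuba8*, -1.55 for *Tubb5*, -1.78 for *Tuba1b*, -1.88 for *Tuba1c*, -1.86 for *Tubb6* and -2.44 for *Tuba1a*. The comparisons share libraries, so their values stand side by side here and are not independent of each other.

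**Figure D2:**
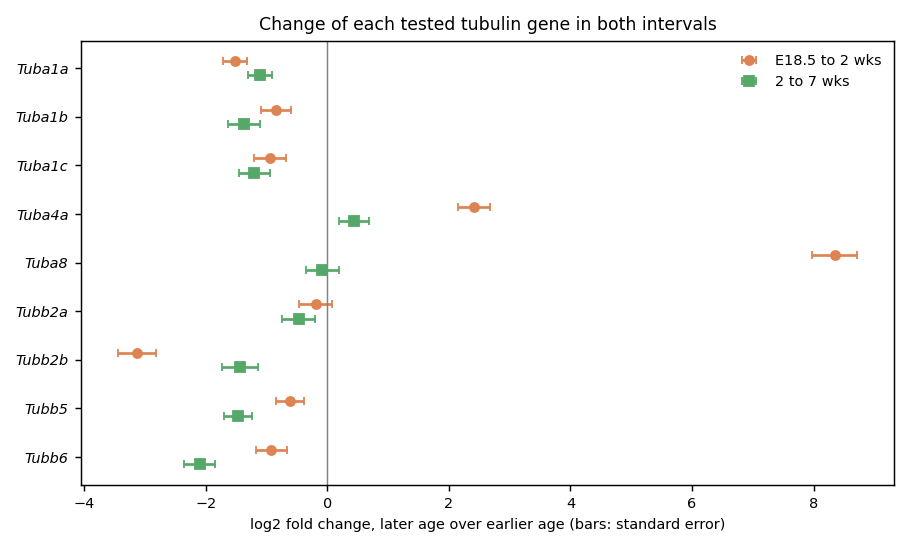
Log2 fold change of the 9 tested tubulin genes from E18.5 to 2 wks (circles) and from 2 to 7 wks (squares), with standard errors as bars. In the first interval *Tuba4a* and *Tuba8* lie above 0 (2.41 and 8.35) and the other 7 below it, and in the second the values run from -2.10 for *Tubb6* to 0.44 for *Tuba4a*.

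E18.5 replicate 2 was the highest embryonic library for every one of the 10 genes. In it the muscle fibre markers summed to 21600 CPM against 12100 to 14300 in the other embryos, and the fibroblast markers to 8670 against 4490 to 6550. The myoblast markers summed to 247 against 129 to 168, the Schwann cell markers to 81.9 against 57.7 to 65.1 and the nerve markers to 5.42 against 2.13 to 3.92. The proliferation (536 CPM), endothelial (370 CPM) and blood markers (265 CPM) lay within the others' ranges of 486 to 725, 312 to 468 and 139 to 489. Without this library the first-interval log2 fold change was -0.34 for *Tubb5* and no longer past the threshold, 0.19 for *Tubb2a*, -0.54 for *Tuba1b*, -0.61 for *Tubb6* and -2.73 for *Tubb2b*. The *Tubb5* value also missed the threshold without 2 weeks replicate 1 (-0.56), 2 (-0.54) or 4 (-0.52). Between E18.5 and 7 wks the *Tubb2a* value of -0.66 (SE 0.27) missed it without E18.5 replicate 2 (-0.28), without 2 weeks replicate 1 or 4 (-0.65 each) and without any one library of 7 wks (-0.53 to -0.72). The 6 calls between 2 and 7 wks stood whichever of the 12 libraries was left out.

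Other cells changed over the same time, and their part in the tubulin values was not tested. From 2 to 7 wks, 8 of 8 proliferation markers were lower, such as *Mki67* with a log2 fold change of -3.83, and their sum went from 95.6 to 186 CPM down to 5.30 to 18.4 CPM. So were 3 of 5 myoblast, 2 of 5 fibroblast, 3 of 6 Schwann cell, 3 of 5 endothelial and 3 of 7 blood markers, and 1 of 6 muscle fibre markers was higher, beside 13.9% of all tested genes lower and 13.5% higher. The myoblast sum was 74.1 to 154 CPM at 2 wks and 26.8 to 41.4 at 7 wks, and the fibroblast sum 3200 to 4740 and 781 to 2790. The Schwann cell sum was 85.5 to 450 and 61.8 to 105, the endothelial sum 724 to 876 and 427 to 716, and the blood sum 52.1 to 243 and 30.7 to 49.1. The muscle fibre sum was 111000 to 135000 and 111000 to 150000 CPM. None of 6 tested nerve markers passed the threshold, and neurofilament light chain (*Nefl*) had 0 to 5 reads at 2 wks and 0 to 2 at 7 wks.

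Marker values for the first interval were as follows, beside 31.5% of all tested genes higher and 34.2% lower. The muscle fibre markers (6 of 6 higher) rose from a sum of 12100 to 21600 CPM to 111000 to 135000, the proliferation markers (7 of 8 lower) fell from 486 to 725 CPM to 95.6 to 186, and the nerve markers (5 of 6 lower) fell from 2.13 to 5.42 CPM to 0.192 to 0.670. Of the myoblast and the fibroblast markers 3 of 5 each were lower, of the blood markers 3 of 7, and of the endothelial markers 3 of 5 were higher. Schwann cell markers were mixed (3 higher and 2 lower of 6), and their sum stood out in 2 weeks replicate 1 at 450 CPM, against 85.5 to 162 in the other 2-wk libraries. That library also had the highest *Tubb2b* of its age (11 CPM) and the highest myoblast sum (154 CPM, against 74.1 to 132). The source of this *Tubb2b* RNA was not tested.

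Levels of different genes were compared as reads per kilobase of transcript divided by the same scaled totals as CPM, using the mean length of each gene's protein-coding transcripts (from 1411 bases for *Tuba1a* to 4890 for *Tubb2b*). Places in the order rest on this choice, as *Tuba4a* has a mean of 1806 bases and a main transcript of 3468. On this scale the embryonic order was *Tuba1a* (125 ± 21.1, SD, n = 4), *Tubb5* (103 ± 37.3) and *Tuba4a* (89.9 ± 27.7), whose ranges overlapped, then *Tuba1b* (39.1 ± 16.3) and *Tubb6* (31.6 ± 12.3), which overlapped each other. The range of *Tubb6* also reached that of *Tubb2a*, and *Tubb2a*, *Tubb2b* and *Tuba1c* followed with overlapping ranges at 16.1 ± 7.60, 15.1 ± 7.43 and 14.5 ± 5.54, and *Tuba8* (0.452 ± 0.173) and *Tubb3* (0.0330 ± 0.0213) were clearly below.

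At 2 wks the order was *Tuba4a* (476 ± 151), *Tuba8* (148 ± 42.5), *Tubb5* (67.5 ± 16) and *Tuba1a* (43.5 ± 8.03), none of which overlapped its neighbour, then *Tuba1b*, *Tubb6*, *Tubb2a* and *Tuba1c* at 21.8, 16.7, 14.1 and 7.56, each overlapping the next, and *Tubb2b* at 1.73. At 7 wks it was *Tuba4a* (645 ± 91.1), *Tuba8* (139 ± 22.2), then *Tubb5* (24.4 ± 1.89) and *Tuba1a* (20.2 ± 4.48), which overlapped. *Tubb2a* (10.1) and *Tuba1b* (8.47) overlapped, as did *Tubb6* (3.89) and *Tuba1c* (3.28), and *Tubb2b* (0.637) and *Tubb3* (0.0137) came last. Among these 10 genes *Tuba8* thus moved from ninth to second place, while *Tubb4b*, outside the list, measured 204 at 2 wks and 156 at 7 wks on this scale.

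Within the alpha class the makeup turned over. *Tuba1a* gave 55.7%, 41.7%, 46.8% and 44.3% of the alpha reads per kilobase in the 4 embryos, 9.74%, 7.69%, 5.47% and 3.97% at 2 wks and 2.17% to 2.97% at 7 wks. *Tuba4a* gave 28.8% to 37.8% before birth, 64.2% to 71.5% at 2 wks and 77.3% to 80.1% at 7 wks. With lengths from the main transcript without copied stretches, described below, these were 11.8% to 16.7%, 44.7% to 55.8% and 64.7% to 67.7%. *Tuba8* gave 0.101% to 0.218% in the embryo, 20.7%, 21.4%, 21.1% and 21.5% at 2 wks and 16.2%, 15.9%, 19.2% and 17.0% at 7 wks. Its share varied less between mice than its level, since *Tuba4a* varied with it, and the ratio of *Tuba8* to *Tuba4a* was 0.301 to 0.322 at 2 wks and 0.200 to 0.249 at 7 wks, with no overlap. The size of this ratio rests on the lengths used.

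Leaving *Tuba8* out of the sum, because it was chosen by its rise, the shares at 2 and 7 wks were compared by two-sided exact permutation tests of 4 libraries against 4, with Benjamini-Hochberg adjustment over the 9 shares of both classes. *Tuba4a* went from 86.0% ± 4.33 to 95.3% ± 0.542 (SD, n = 4), and *Tuba1a* from 8.51% ± 3.18 to 2.96% ± 0.417 (SD, n = 4). *Tuba1b* went from 4.11% to 1.27% and *Tuba1c* from 1.41% to 0.488%. For each of these 4, all libraries of one age lay on one side of the other, with an exact p = 0.029, the smallest that 4 against 4 can give, and an adjusted p = 0.0429. The 4 shares add up to a whole, so a rise of *Tuba4a* brings falls of the others and these are not separate results. The adjusted value depends on how many of the 9 shares reach the smallest p.

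Grouped by the codons shown above, genes that end in a tyrosine codon (*Tuba1a*, *Tuba1b* and *Tuba1c*) made up 62.0% to 71.0% of the alpha reads per kilobase in the embryos, 7.00% to 15.1% at 2 wks and 3.45% to 4.63% at 7 wks. Genes with a lysine codon at position 40 made up 99.8% to 99.9%, 78.5% to 79.3% and 80.8% to 84.1%, the rest being *Tuba8*. These are shares of transcripts and do not measure protein or its modification.

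The 3 *Tuba1* genes share long stretches, which bears on these shares. Of the 100-base windows of the main transcript, 49.9% in *Tuba1a*, 37.5% in *Tuba1b* and 46.1% in *Tuba1c* had an exact copy elsewhere in the genome or in transcripts of other genes, against none in *Tuba4a* and *Tuba8*. In *Tubb2a* the share was 25.1% and in *Tubb2b* 11.2%. HTSeq by default leaves out reads that align to several places, and the setting used is not given in the sources used here. On the same strand, *Gm49450* shares 26.2% of the exon bases of *Tuba1a* and 12.7% of those of *Tuba1b*, and it has no reads in any library of the count table. The lack of reads does not show how reads on the shared bases were treated. Copies in overlapping genes were not counted among the copied windows. With the length taken as the number of windows without a copy, genes ending in a tyrosine codon made up 83.1% to 88.1%, 16.4% to 31.6% and 8.69% to 11.6% of the alpha reads per kilobase at the 3 ages. The same 4 alpha shares then differed between 2 and 7 wks. This length was counted on the main transcript, so it also changed that of *Tuba4a*, which has no copied window, from 1806 to 3369. The shift in the shares thus holds the choice of transcript as well as the copies. With paired reads, a pair can also reach outside a copied window, so the length without copies may be too short. Exons of genes on the other strand also cover part of some transcripts, 89.1% of *Tubb2a* (*Bphl*), 43.9% of *Tubb5* (*Flot1*), 40% of *Tuba4a* (*Stk16*), 34.7% of *Tubb6* (*Afg3l2*), 25.9% of *Tuba1a* and 16.8% of *Tuba1b* (both *Gm41396*) and 16.2% of *Tuba8* (*Gm15856*), and whether the counting used the strand is not given in the sources used here.

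**Figure D3:**
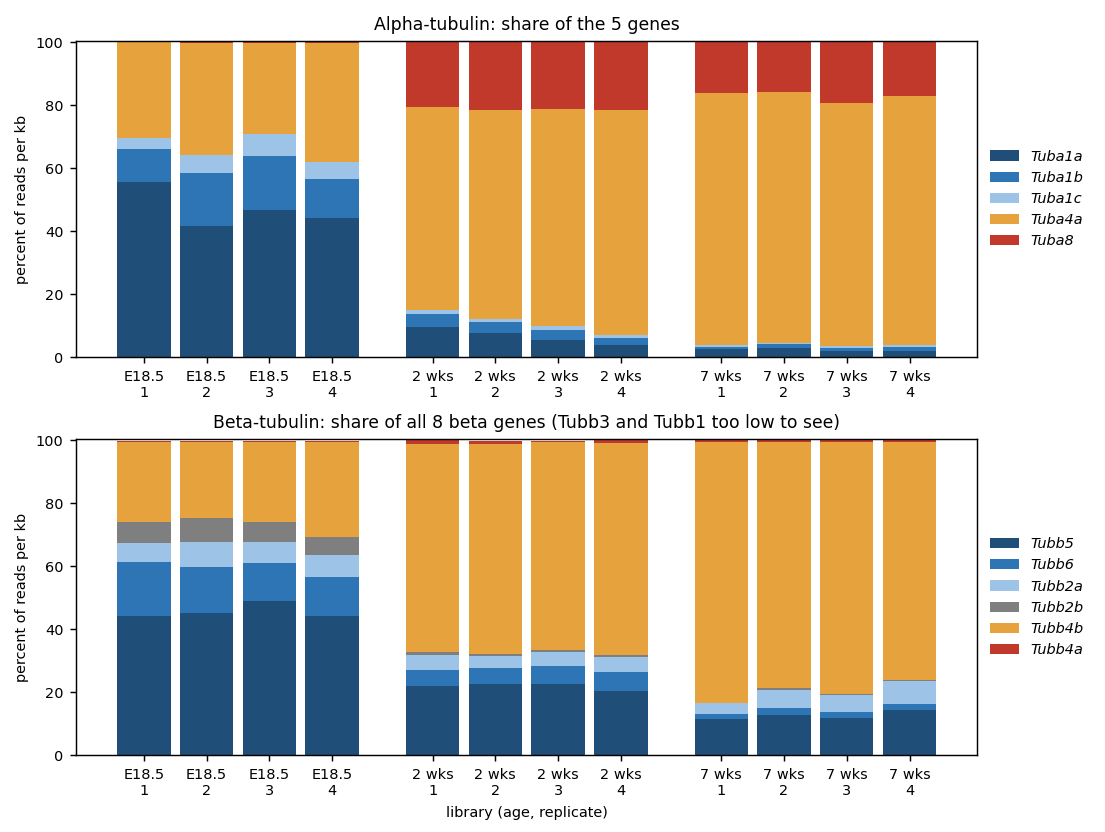
Share of each gene in the reads per kilobase of its class, in percent, for the 12 libraries: above, the 5 alpha genes, and below, all 8 beta genes including *Tubb4b*, *Tubb4a* and *Tubb1*, which are outside the list of 10. *Tuba4a* and *Tuba8* together make up 29% to 38.0% of the alpha bars before birth and 95.4% to 96.5% at 7 wks, and *Tubb4b* goes from 24.3% to 30.2% to 75.6% to 82.8% of the beta bars.

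Among the 5 listed beta genes, *Tubb5* remained the main one at every age, with 59.7% to 66.1%, 64.5% to 70.2% and 59.6% to 69.5% of their reads per kilobase. *Tubb2a* rose in share from 14.1% ± 1.42 at 2 wks to 26.0% ± 4.77 at 7 wks (SD, n = 4), and *Tubb6* fell from 16.7% ± 1.37 to 9.92% ± 1.64 (SD, n = 4), both without overlap (exact p = 0.029, adjusted p = 0.0429, two-sided exact permutation tests). *Tubb5* (67.5% to 62.4%, adjusted p = 0.147), *Tubb2b* (1.77% to 1.63%, adjusted p = 0.771) and *Tubb3* (0.0236% to 0.0347%, adjusted p = 0.611) did not pass the threshold of the same exact permutation tests. Expressed as log2 ratios to the geometric mean of the class, 0 of the 9 shares passed, with adjusted p = 0.0514 at the lowest (exact permutation tests). The adjusted p again depends on how many of the 9 reach the smallest exact p.

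This picture depends on *Tubb4b*, a beta-tubulin outside the list, known from ciliated and many other tissues. It measured 89.4 ± 26.9 CPM in the embryos, then 311 ± 63.7 CPM at 2 wks and 237 ± 46.4 CPM at 7 wks (SD, n = 4 each), with a log2 fold change of 1.80 (SE 0.23, adjusted p = 1.52e-05) and then -0.39 (SE 0.22, adjusted p = 0.205), both by edgeR, Benjamini-Hochberg adjusted. The first value was 0.86 under scaling to the total count and 1.1 with the GC trend removed. With *Tubb4b*, *Tubb4a* and *Tubb1* in the sum, *Tubb4b* made up 24.3% to 30.2% of beta reads per kilobase before birth, 66.1% to 67.5% at 2 wks and 75.6% to 82.8% at 7 wks. The share of *Tubb2a* then no longer differed between 2 and 7 wks (4.57% and 5.39%, adjusted p = 0.514), that of *Tubb5* did (21.9% and 12.6%, adjusted p = 0.0429) and that of *Tubb6* still did (5.42% and 2.01%, adjusted p = 0.0429), by two-sided exact permutation tests. The ratio of *Tubb4b* to *Tubb5* per length was 0.524 to 0.684, 2.92 to 3.29 and 5.28 to 7.09 at the 3 ages.

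Tubulin subunits assemble as pairs, so the sums of both classes were set side by side. The 5 alpha genes summed to 269 ± 63.1, 697 ± 196 and 816 ± 112 on that per-length scale (SD, n = 4) at E18.5, 2 wks and 7 wks. The 5 listed beta genes summed to 166 ± 63.7, 100 ± 23.2 and 39.1 ± 1.14, a ratio of alpha to beta of 1.41 to 1.94, 5.23 to 9.34 and 17.9 to 24.3. With all 8 beta genes the beta sum was 226 ± 81.2, 307 ± 64.8 and 196 ± 31.0, and the ratio 1.06 to 1.44, 1.71 to 2.97 and 4.08 to 4.28. The alpha sums include *Tuba8*, which was chosen by its rise, so the step of the ratio at 2 wks is a description. The ratio rests on lengths taken from the annotation and on the read assignment described above.

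Of the other tubulin genes, 5 of 8 were tested. From E18.5 to 2 wks 2 were higher and 2 lower (median 0.20), beside 65.7% of all tested genes called, and under scaling to the total count 1 and 3. Later 1 was higher and 1 lower (median -0.31), beside 27.5% of all tested genes, and under that scaling 0 and 2. Total-count scaling moved the median over all tested genes to -1.02 in the first interval and -0.383 in the second. The 65.7% and 27.5% belong to the TMM fit, here and for the lists below. *Tubb4a*, a neuronal and oligodendrocyte isotype, went from 1.88 ± 0.837 to 5.51 ± 1.14 and back to 1.97 ± 0.248 CPM (SD, n = 4), passing the threshold in both intervals (log2 fold changes 1.55 and -1.48, adjusted p = 0.000276 and 0.00214, edgeR, Benjamini-Hochberg adjusted). These 2 *Tubb4a* values were 0.64 and -1.85 under scaling to the total count, and 0.59 and -1.2 with the GC trend removed. *Tube1*, the epsilon-tubulin of centrioles, fell by 1.54 before 2 wks (SE 0.19, adjusted p = 1.3e-05, edgeR, Benjamini-Hochberg adjusted), and *Tubb1*, the beta-tubulin of platelets, fell by 2.90 (SE 0.55) from 26 to 61 reads to 1 to 7 reads. *Tubd1*, the delta-tubulin of centrioles, rose by 0.75 from 2 to 7 wks (SE 0.16, adjusted p = 0.0036, edgeR, Benjamini-Hochberg adjusted). The alpha genes *Tuba3a*, *Tuba3b* and *Tubal3* had 0 to 4 reads per library, and a count of 0 allows up to 3.

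The genes whose profiles over the 12 libraries lay nearest to that of *Tuba8*, among 8966 genes that averaged 3 or more in log2 CPM, were *Nctc1*, a non-coding RNA gene, *Hr*, a transcriptional corepressor, *Pvalb*, the calcium buffer parvalbumin of fast fibres, *Myh1*, the myosin heavy chain of IIX fibres, and *Kcng4*, a subunit of potassium channels. Their root mean square distances from *Tuba8* in centred log2 CPM were 0.548, 0.587, 0.673, 0.690 and 0.747. Their log2 fold changes before 2 wks were 8.86, 7.02, 7.60, 7.81 and 7.91, beside 8.35 for *Tuba8*. *Tuba1b* and *Tubb5*, an alpha and a beta gene on different chromosomes, were each other's nearest gene at a distance of 0.137, and *Tuba1b* was also nearest to *Tuba1c* (0.151). The nearest gene was *Spats2l* for *Tuba1a* (0.157), *Camk2g*, a calcium-dependent kinase subunit, for *Tuba4a* (0.187), *Timeless*, of the replication fork, for *Tubb2a* (0.197), *Ckap4*, a membrane protein of the endoplasmic reticulum, for *Tubb6* (0.272) and *Tnnc1*, the troponin C of slow fibres, for *Tubb2b* (0.400). Distances are a description over 12 libraries at 3 ages, and any gene that differs between the ages in the same way comes out as near.

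**Figure D4:**
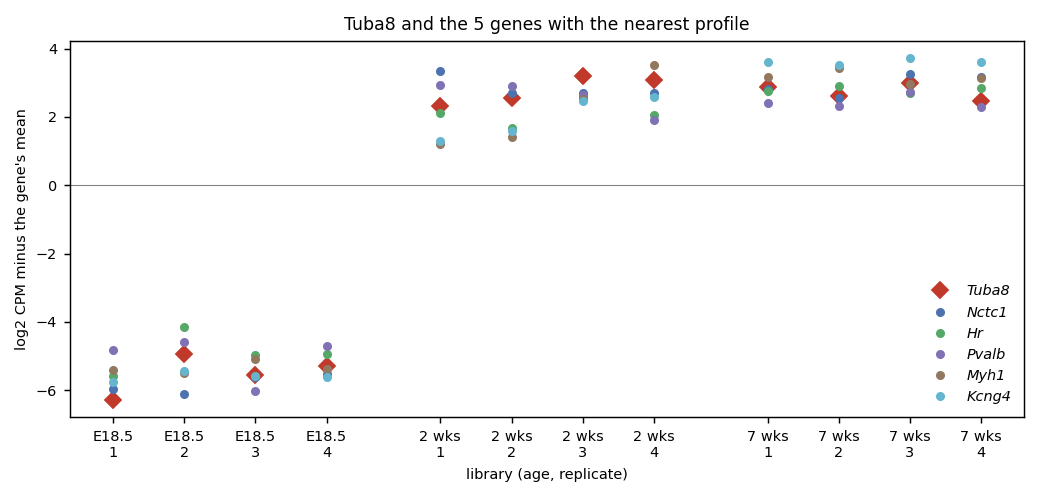
Log2 CPM of *Tuba8* (diamonds) and the 5 genes with the nearest profile in the 12 libraries, each minus its own mean. All 6 genes lie below 0 in every embryo and above 0 in every library after birth. At 2 wks *Kcng4* and *Hr* stand lower than *Tuba8* in every library. *Myh1* is lower in replicates 1, 2 and 3, and *Nctc1* and *Pvalb* in replicates 3 and 4.

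Newly made tubulin is folded by prefoldin, the CCT chaperonin and the tubulin cofactors (*Tbca* to *Tbce*). Of 22 genes of folding and assembly, 7 were higher and 5 lower in the first interval (median 0.03), where 65.7% of all tested genes were called, and under scaling to the total count 4 and 15. Under that scaling the median over all tested genes was -1.02. *Pfdn1* (log2 fold change 2.05, SE 0.17) and *Pfdn6* (1.71, SE 0.25), both prefoldin subunits, and *Arl2* (1.83, SE 0.24), a small GTPase that acts with the cofactors, rose most, with adjusted p = 3.7e-07, 4.74e-05 and 2.24e-05 by edgeR, Benjamini-Hochberg adjusted. *Cct4* (-0.62), *Tbca* (-0.62) and *Cct6a* (-0.51) fell most. With the GC trend removed *Pfdn1*, *Pfdn6* and *Arl2* had 1.8, 1.1 and 0.67, and *Cct4*, *Tbca* and *Cct6a* -0.18, -0.15 and -0.33. Under scaling to the total count they had 1.14, 0.77 and 0.9, and -1.54, -1.54 and -1.44, in the same order. After 2 wks, where 27.5% of all tested genes passed, 1 gene of the list did, *Tbcc*, which fell by 0.87 (SE 0.26, adjusted p = 0.0222, edgeR, Benjamini-Hochberg adjusted). No gene of the list passed without 2 weeks replicate 1 or 4 or without 7 weeks replicate 1 or 2 (0 each), and without E18.5 replicate 1 there were 4.

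Of 24 genes for enzymes that modify tubulin, 21 were tested. In the first interval 5 were higher and 8 lower (median 0.12), where 65.7% of all tested genes were called, and under scaling to the total count 3 and 15. After 2 wks 2 were higher and 5 lower (median -0.13), beside 27.5% of all tested genes, and under that scaling 2 and 10. The median over all tested genes was then -1.02 before 2 wks and -0.383 after it. *Ttll7*, which adds glutamates to beta-tubulin tails, rose in both intervals, from 9.5 ± 3.04 to 43.5 ± 17.8 and 214 ± 40.4 CPM (SD, n = 4), by 2.20 (SE 0.29, adjusted p = 2.05e-05) and 2.30 (SE 0.29, adjusted p = 0.000126) on the log2 scale (edgeR, Benjamini-Hochberg adjusted). *Tpgs1*, of the polyglutamylase complex, rose by 3.58 (SE 0.47) and *Sirt2*, a deacetylase, by 1.86 (SE 0.21) before 2 wks, while *Agbl3*, a deglutamylase, fell by 0.92 (SE 0.23) and *Ttll4*, another glutamylase, by 0.77 (SE 0.17). At E18.5 *Tpgs1* averaged only 0.364 CPM. With the GC trend removed *Ttll7*, *Tpgs1* and *Sirt2* had 2.72, 2.25 and 1.01 before 2 wks, and *Agbl3* and *Ttll4* -0.61 and -0.7. Under scaling to the total count they had 1.25, 2.64 and 0.93, and -1.83 and -1.69, in the same order. *Agtpbp1*, which shortens glutamate chains, rose by 0.76 after 2 wks (SE 0.14, adjusted p = 0.00169, edgeR, Benjamini-Hochberg adjusted).

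The enzymes of the tyrosine cycle act on the tail shown above. *Vash2*, a carboxypeptidase that removes the tyrosine, fell from 44.5 ± 13.7 to 9.39 ± 2.34 and 4.02 ± 1.92 CPM (SD, n = 4), with log2 fold changes of -2.24 (SE 0.33, adjusted p = 4.67e-05) and -1.23 (SE 0.32, adjusted p = 0.0127) (edgeR, Benjamini-Hochberg adjusted). The related *Vash1* had a log2 fold change of 0.36 (SE 0.34, adjusted p = 0.371; -0.59 under scaling to the total count and -1.16 with the GC trend removed) before 2 wks and fell by 1.79 (SE 0.36, adjusted p = 0.00267) after it, by edgeR, Benjamini-Hochberg adjusted. Genes added here for this role after their values were seen are *Svbp*, the partner of both, which fell by 0.68 after 2 wks (adjusted p = 0.0346), *Matcap1*, another tyrosine-removing protease, which fell by 0.51 and then 1.09 (adjusted p = 0.0303 and 0.00149), and *Ttl*, the ligase that puts the tyrosine back, which fell by 0.71 before 2 wks (adjusted p = 0.00448) and had 0.39 after it (adjusted p = 0.137), all by edgeR, Benjamini-Hochberg adjusted. Also added in this way, *Atat1*, the acetyltransferase of lysine 40, fell by 0.53 before 2 wks (SE 0.14, adjusted p = 0.00506), while *Hdac6*, a deacetylase, had 0.12 (SE 0.18, adjusted p = 0.575), by edgeR, Benjamini-Hochberg adjusted.

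Of 28 genes for microtubule-associated, plus-end and severing proteins, 12 were higher and 12 lower in the first interval (median -0.05), beside 65.7% of all tested genes, and under scaling to the total count 4 and 18. Between 2 and 7 wks 8 were higher and 5 lower (median 0.14), beside 27.5% of all tested genes, under that scaling 1 and 7, and without 2 weeks replicate 1 or 7 weeks replicate 2 7 and 8 genes passed. Total-count scaling put the median over all tested genes at -1.02 and -0.383 in these intervals. *Mapt*, which encodes tau, rose from 3.65 ± 0.954 to 60.5 ± 22.1 and 99.7 ± 10.8 CPM (SD, n = 4), by 4.05 before 2 wks (SE 0.28, adjusted p = 1.18e-07, edgeR, Benjamini-Hochberg adjusted). *Map7d1*, a kinesin cofactor, rose by 1.99 (SE 0.23) and *Stmn3*, a stathmin at 0.177 ± 0.0788 CPM (SD, n = 4) at 2 wks, by 2.47 (SE 0.71). *Dcx* (doublecortin, of migrating neurons) fell by 5.35 (SE 0.28), its relative *Dclk1* by 3.98 (SE 0.41) and *Fignl1*, of the family of severing enzymes, by 2.80 (SE 0.30). With the GC trend removed *Mapt*, *Map7d1* and *Stmn3* had 3.35, 0.85 and 1.56 before 2 wks, and *Dcx*, *Dclk1* and *Fignl1* -4.82, -3.77 and -2.29. Under scaling to the total count they had 3.09, 1.06 and 1.55, and -6.27, -4.9 and -3.74, in the same order.

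After 2 wks *Clip1*, a plus-end protein, rose by 1.31 (SE 0.17, adjusted p = 0.000164) and *Map4*, which has a muscle form, by 0.79 (SE 0.18, adjusted p = 0.00576), whereas *Stmn1*, which binds free tubulin dimers, fell by 2.64 (SE 0.26, adjusted p = 2.69e-05) and *Fignl1* fell by 2.57 (SE 0.32, adjusted p = 0.000114), all by edgeR, Benjamini-Hochberg adjusted. *Map4* reached 940 ± 152 CPM (SD, n = 4) at 7 wks, against 376 ± 60.8 (SD, n = 4) at E18.5.

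Of 19 genes for nucleation and microtubule-organising centres, 4 were higher and 8 lower in the first interval (median -0.22), beside 65.7% of all tested genes, and under scaling to the total count 0 and 15. Under that scaling the medians over all tested genes were -1.02 in this interval and -0.383 in the next. *Tubg1*, the gamma-tubulin that seeds microtubules, rose by 1.30 (SE 0.21), *Pcnt* (pericentrin) by 1.28 (SE 0.19) and *Mzt2* by 1.21 (SE 0.22). With the GC trend removed these were 0.25, 0.52 and 0.79, and under scaling to the total count 0.36, 0.35 and 0.28. *Tpx2*, of the mitotic spindle, fell by 2.04 (SE 0.27), *Pcm1*, a protein of centriolar satellites that in muscle also sits at the nuclear envelope, by 1.01 (SE 0.21) and *Haus8*, an augmin subunit, by 0.89 (SE 0.21). From 2 to 7 wks 6 were higher and 2 lower (median 0.22), beside 27.5% of all tested genes, under scaling to the total count 1 and 3, and with each library left out in turn between 4 and 9 passed, with 4 without 2 weeks replicate 1, 2 or 3 or 7 weeks replicate 1, and 5 without 2 weeks replicate 4 or 7 weeks replicate 2 or 4. *Mzt1* rose by 0.96 (SE 0.16, adjusted p = 0.00109) and *Akap6*, an anchor at the nuclear envelope of muscle, by 0.60 (SE 0.21, adjusted p = 0.0475), while *Tpx2* fell by 1.01 (SE 0.26, adjusted p = 0.012) and *Haus8* by 0.62 (SE 0.21, adjusted p = 0.0423), by edgeR, Benjamini-Hochberg adjusted.

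**Figure D5:**
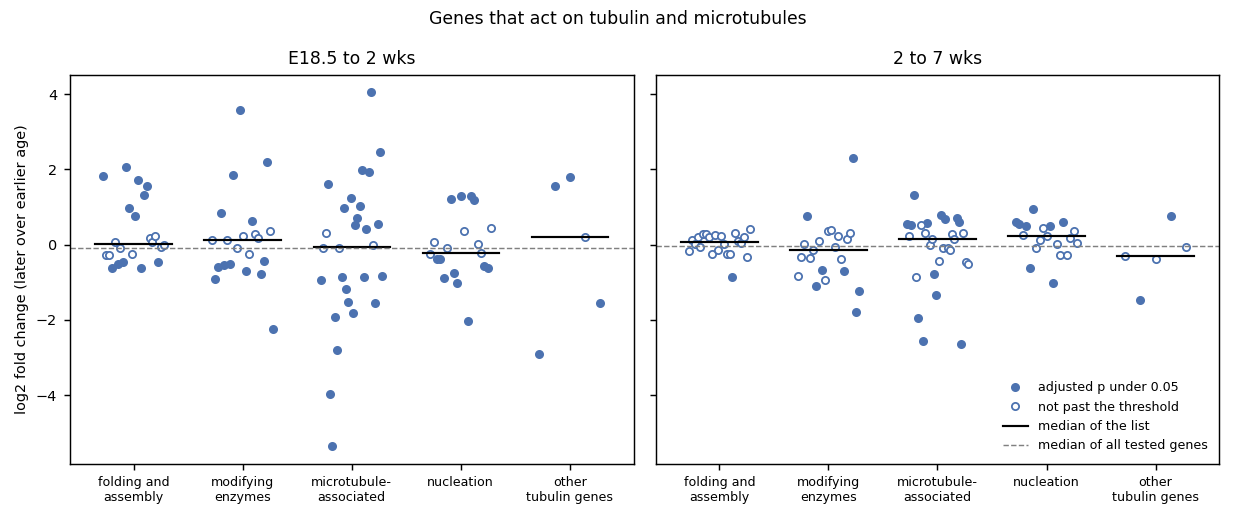
Log2 fold change of each tested gene of the 5 lists of tubulin and microtubule genes from E18.5 to 2 wks (left) and from 2 to 7 wks (right), filled where the adjusted p was under 0.05, with the median of each list as a black line and that of all tested genes as a dashed line. List medians lie between -0.31 and 0.22 in both intervals, and single genes reach from -5.35 (*Dcx*) to 4.05 (*Mapt*).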

How the data were processed

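The authors deposited raw read counts per Ensembl gene for the 12 libraries, without normalization. The methods describe paired-end reads of a stranded polyA kit, cutadapt 1.10 for trimming, STAR mapping to GRCm39 and Cufflinks for transcripts, whose output was not used here. The submitters' processing notes instead list mm10, STAR 2.5.3a and HTSeq 0.6.1p1. Whether HTSeq counted by strand, and on which annotation release, is not given in the sources used here. Symbols and the coordinates printed come from GENCODE vM39 on GRCm39, in which 3973 of the 55450 gene identifiers had no symbol.

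The tubulin genes and all lists were chosen with earlier results of these data known. The genes named are the 10 tubulin genes, the other tubulin genes, the markers, up to 3 rises and 3 falls per list before 2 wks and up to 2 of each after it, and the nearest profiles (5 for *Tuba8*, 1 for the others). Counts were tested with edgeR 4.0.16 (limma 3.58.1, R 4.3.3), with age as the only term in a fit of all 12 libraries. The biological coefficient of variation was 0.279, so counting error matters only for genes with few reads, and intervals for it are not given. The embryonic libraries had TMM factors of 1.62 to 1.77, those of 2 wks 0.810 to 0.946, and those of 7 wks 0.667 to 0.699. Scaling to the total count instead moved the median over everything tested (log2) from -0.0925 to -1.02 in the first interval and from -0.0339 to -0.383 in the second.

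Shares are reads per kilobase within a class, and their permutation tests compared the 70 regroupings of 4 against 4. Nearest profiles used log2(CPM + 0.05). Simulated counts with known changes were used to test the procedure. No pair of replicates was a copy of another. Alternatives included DESeq2 1.42.0, other scalings and filters, and removal of the GC trend of every library. The canonical transcript length and the count of windows without a copy were added as lengths for the shares after seeing the data. Some coding ends are not reported here. Sequences were read with biopython 1.88, tables with pandas 2.3.3, and figures drawn with matplotlib.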

Additional observations from a re-analysis of the deposited data

Results flagged for a closer look

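Over 60 groups of 4 libraries examined, 4 had a library far from the other 3 by Dixon's criterion, where chance gives about 3. *Tubb2b* was 128 CPM in E18.5 replicate 2, against 51.7 to 63.5 in the other embryos. *Tubb2b* was also high in 7 weeks replicate 2, at 4.13 CPM against 2.65 to 2.87. *Tuba1c* was 23.7 CPM in 2 weeks replicate 3, against 15 to 15.1. *Tubb5* made up 69.5% of the listed beta genes in 7 weeks replicate 1, against 59.6% to 60.8%.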

How the results depend on the processing

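The called changes of the 10 listed tubulin genes kept their direction under every alternative run, but *Tubd1*, outside the list, was 0.95 between E18.5 and 7 wks and -0.33 under total counts. *Tuba8* from 2 to 7 wks, which was not called, turned to 0.04 with the GC trend removed and ranged from -0.23 to 0.07 with a library left out, and *Tubb2a* before 2 wks ranged from -0.36 to 0.19. *Tubb2a* passed the threshold under total counts (-1.13 before and -0.81 after 2 wks) and, before 2 wks, without the 20 most abundant and the mitochondrial genes (-0.71). *Tubb5* before 2 wks missed it with only the 8 libraries of the ages compared (-0.62), and without E18.5 replicate 2 (-0.34) or 2 weeks replicates 1, 2 or 4. GC correction made the falls before 2 wks larger for *Tubb6* (-1.89), *Tuba1c* (-1.62) and *Tuba1b* (-1.26) and the rise of *Tuba4a* smaller (1.5).

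Replicate numbers are shared by the ages, and deviations of libraries with the same number correlated from -0.28 to 0.51. Libraries with different numbers were not compared in this way, so whether a number marks libraries handled together cannot be told. With the replicate block 8, 6 and 8 tubulin genes were called in the 3 comparisons (8, 6 and 9 without it), *Tubb2a* (-0.62) being lost between E18.5 and 7 wks. No paired test of shares was run, since 4 pairs cannot go below 0.125.

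Of the 9 shares, 6 differed, and as log2 ratios to the geometric mean of the class 0 passed (lowest adjusted p = 0.0514, exact permutation tests). The adjusted p depends on how many of the 9 reach the smallest exact p. A count of 0 therefore does not show equal shares. Each of the 6 that differed had the smallest exact p possible. Shares of a class add up to a whole, so the 6 are not separate results. The share of *Tubb3* turned to -0.000616 percentage points with all beta genes and ranged from -0.000848 to 0.018 with a library left out, that of *Tubb2b* from -0.313 to 0.0441.

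Folding genes called before 2 wks numbered 19 under total counts and 20 without the most abundant genes (12 otherwise), and after 2 wks 4 and 4, 2 with upper-quartile scaling, 2 with DESeq2, 2 with at least 10 counts in every library, 4 with only the libraries compared and 3 with GC correction (0 to 4 with a library left out). After 2 wks, modifying enzymes numbered 12 under total counts, 11 without the most abundant genes and 11 with DESeq2, associated proteins 8 and 8 (7 to 13 with a library left out), and nucleation genes 4 and 4, and 4 without a filter (4 to 9 with a library left out). With GC correction 9 folding genes were higher and 3 lower before 2 wks, and 5 modifying enzymes higher and 14 lower. The share of all tested genes called under each of these settings is not given here, so nothing is read from these counts. Causes were not tested.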
